A study of Capra hircus with 8 samples.

Results

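Schwann cells are the glia of peripheral nerve. In skin they wrap the sensory and autonomic fibres that run through the dermis and around hair follicles, either as myelin or as loose sheaths around thin axons. Neuregulin on the axon signals to their ERBB2 and ERBB3 receptors, SOX10 holds the glial programme, and the neurotrophin receptor NGFR is high in immature and non-myelinating cells. The 6 genes followed here, NGFR, SOX10, S100B, ERBB3, CDH19 and L1CAM, are widely used labels of this lineage. They were taken by symbol, and all 6 were found among the 18815 genes of the first count table. All 6 were also among the 14085 genes with enough reads to be tested.

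Skin RNA of cashmere goats and of milk goats was sequenced at months 3, 6, 9 and 12. Each breed has 1 library at each month, which makes 8 libraries. The labels give no genotype, treatment or sex. They list the month as an age, whereas the stated design speaks of different months, and they do not say how many animals a library holds. Library totals lay between 7480053 and 8718429 reads in cashmere goats and between 11333734 and 13899750 reads in milk goats. A gene with no read could still have a level of up to 3 reads, or 0.231 to 0.395 CPM (read counts scaled to a common library size). TCHH, the trichohyalin gene of the hair root sheath, held between 0.243% (milk goats, month 12) and 12.96% (milk goats, month 9) of a library, and CPM were scaled for such differences. The second count table places NGFR on chromosome 19, SOX10 and ERBB3 on 5, S100B on 1, CDH19 on 24 and L1CAM on X, without a named genome build.

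Several of the genes are used by other skin cells too. ERBB3 is also a receptor of keratinocytes, SOX10 and ERBB3 are expressed by melanocytes, NGFR by parts of the hair follicle, S100B by Langerhans cells, melanocytes and fat cells, and L1CAM by axons. In whole skin, fewer cells of a type and less RNA per cell cannot be told apart.

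On the length-scaled FPKM scale (fragments scaled to gene length and library size), ERBB3 stood far above the others. Its level was 25.8 ± 4.54 FPKM (SD, n = 8 libraries), 4.68-fold the mean of S100B, the next gene. S100B, a calcium-binding protein, had 5.52 ± 2.39 FPKM, NGFR 3.03 ± 1.50, SOX10 2.59 ± 1.13, CDH19 1.88 ± 1.05 and L1CAM 1.83 ± 0.409. Neighbours in this order from S100B down to L1CAM overlapped in their ranges. ERBB3 made up 54.4% to 71.0% of the summed FPKM of the 6 genes, so a sum over the genes mostly reads ERBB3.

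**Figure D1:**
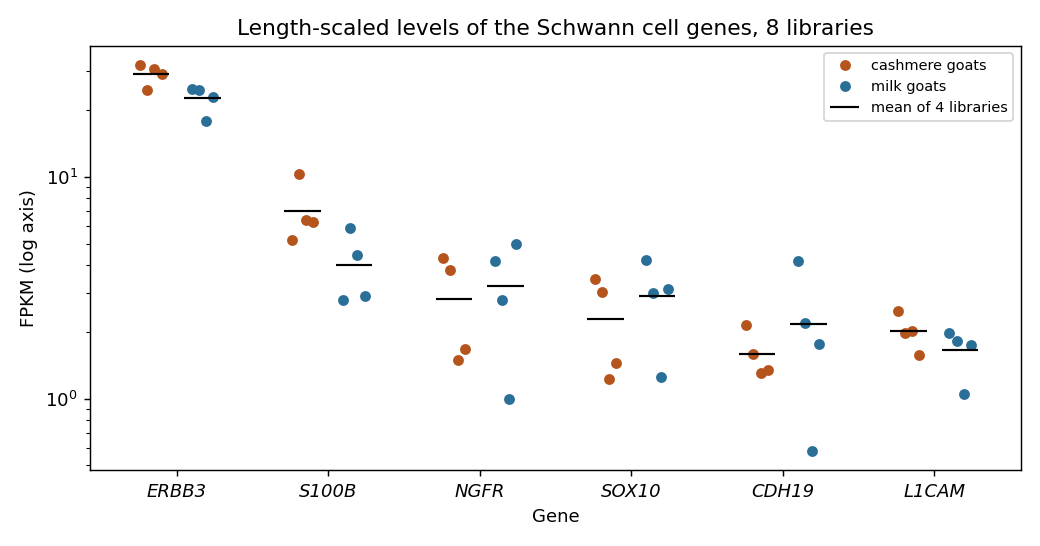
FPKM of each gene on a log axis, with 1 point per library (months 3, 6, 9 and 12 from left to right), cashmere goats left of milk goats, and a bar at the mean of 4 libraries. ERBB3 lies between 17.8 and 31.9 FPKM, and the other 5 genes lie at 10.3 FPKM or below.

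SOX10, the transcription factor that specifies and maintains peripheral glia, was lowest at month 9 in both breeds. In cashmere goats it stood at 15.7, 14.7, 5.96 and 7.24 CPM in months 3, 6, 9 and 12. In milk goats it stood at 21.2, 15.0, 8.27 and 17.8 CPM in the same months. Both breeds were thus high in months 3 and 6 and low at month 9, and only the milk goats were high again at month 12.

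NGFR, the low-affinity neurotrophin receptor p75, followed nearly the same course. Cashmere goats had 22.0, 20.8, 8.13 and 9.35 CPM over months 3 to 12. Milk goats had 23.7, 15.9, 7.35 and 32.0 CPM. The breeds were close at months 3 and 9, and at month 12 the milk goat library held the highest value of all 8 while the cashmere goat library stayed near its month 9 value. That peak was absent in the second count table, where milk goats had 7.74 CPM at month 3 and 5.07 CPM at month 12.

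CDH19, a cadherin of immature Schwann cells and nerve-associated glia, had its lowest value at month 9 in both breeds as well. Cashmere goats had 13.9, 10.96, 8.94 and 9.61 CPM, a narrower range than in milk goats. Milk goats had 29.6, 15.6, 5.42 and 14.4 CPM, so that their month 3 library was the highest and their month 9 library the lowest of all 8. The reads behind the lowest values were few, at 78 in the cashmere goat library and 59 in the milk goat library of month 9.

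The other 3 genes did not have their lowest month at month 9 in both breeds. ERBB3, the neuregulin receptor, had 265, 221, 272 and 266 CPM in cashmere goats and 231, 229.5, 217 and 242 CPM in milk goats over months 3 to 12. Its highest value was 1.25-fold its lowest. L1CAM, an adhesion molecule of axons and non-myelinating Schwann cells, had 19.1, 16.5, 16.7 and 13.4 CPM in cashmere goats, against 16.9, 15.7, 12.0 and 17.2 CPM in milk goats. Its values spanned 1.60-fold, with the lowest at month 12 in cashmere goats and at month 9 in milk goats. By comparison, NGFR spanned 4.35-fold, SOX10 3.55-fold and CDH19 5.46-fold over the 8 libraries.

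S100B ran the other way. It had 12.0, 25.8, 15.9 and 16.1 CPM in cashmere goats and 7.17, 15.2, 15.2 and 8.55 CPM in milk goats over months 3 to 12. Its lowest month was month 3 in both breeds, where SOX10 had its highest values. Cashmere goats had the higher value in each month of this table, by the least at month 9, and the ranges of the breeds overlapped.

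**Figure D2:**
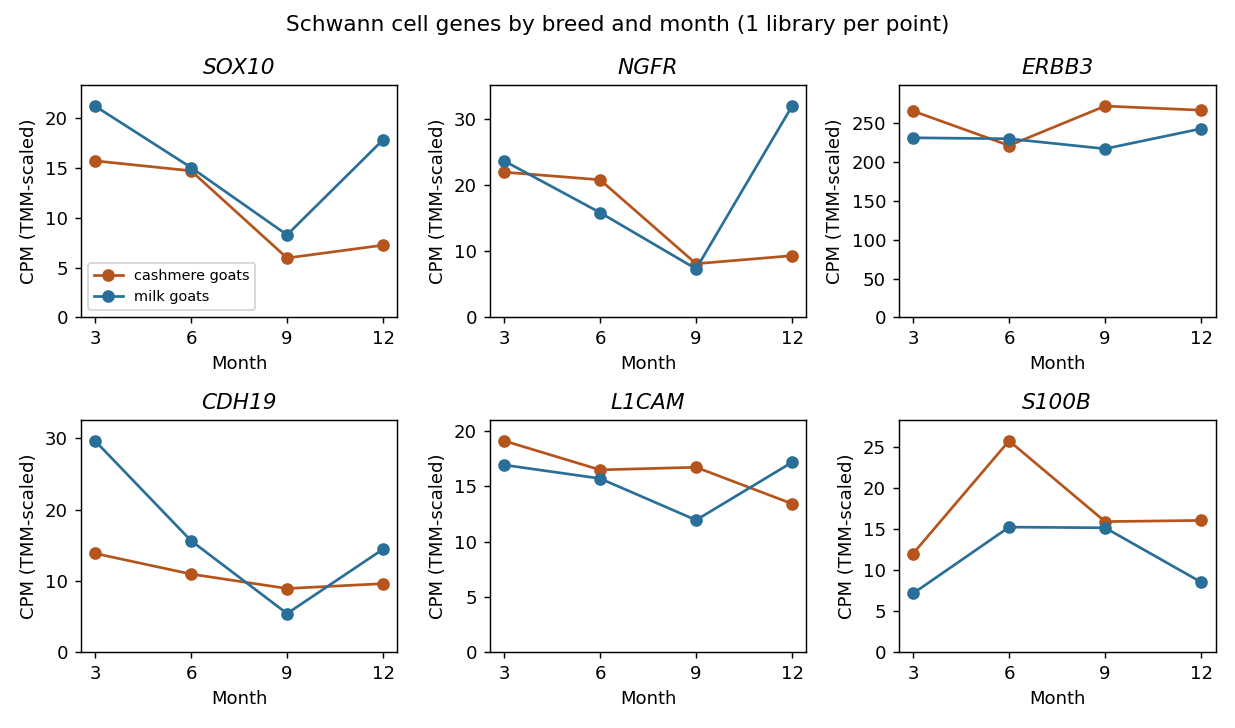
CPM of the 6 genes at months 3, 6, 9 and 12 (1 library per point, axes from 0), cashmere goats in brown and milk goats in blue. SOX10, NGFR and CDH19 have their lowest point at month 9 in both breeds, ERBB3 stays between 217 and 272 CPM, and S100B is lowest at month 3.

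The shape with the lowest of the 4 months at month 9 in both breeds was thus met by 3 of the 6 genes, and by 10.1% of all tested genes. The shape was described after the values were seen. In the second count table CDH19 met it too, whereas SOX10 and NGFR met it in milk goats alone: cashmere goats had 2.59 CPM of SOX10 at month 9 and 2.02 CPM at month 12, and 3.71 CPM of NGFR at month 9 and 2.09 CPM at month 12. The correlation of log2 CPM over the 8 libraries, given as a description, was 0.92 between SOX10 and NGFR, 0.79 between SOX10 and CDH19 and 0.75 between NGFR and CDH19. Many other genes correlated as highly. Among 10798 genes with a mean of at least 5 CPM, CDH19 ranked 704 in likeness to SOX10 and 826 in likeness to NGFR. S100B correlated with SOX10, NGFR and CDH19 at -0.50, -0.47 and -0.63, and ERBB3 at -0.41, -0.16 and -0.01. L1CAM correlated with them at 0.57, 0.73 and 0.65, and was thus nearer to them than S100B or ERBB3, over a much smaller span of levels. The points share their library scaling, and 2 breeds seen over the same months are not independent.

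The first test asked whether the breeds differed over the 4 months, in a model of month and breed (edgeR quasi-likelihood test, adjusted over all tested genes). None of the 6 genes passed an adjusted p of 0.05, where 4.79% of all tested genes did (675 genes, and 3786 at an unadjusted p under 0.05). DESeq2 likewise called 0 of the 6, beside 12.2% of all tested genes. S100B averaged 17.4 ± 5.86 CPM in cashmere goats and 11.5 ± 4.28 CPM in milk goats (SD, n = 4 each). Its log2 fold change was 0.62 ± 0.19 (SE; edgeR adjusted p = 0.0986). SOX10 averaged 10.9 ± 5.002 CPM in cashmere goats and 15.6 ± 5.47 CPM in milk goats, a log2 fold change of -0.55 ± 0.23 (edgeR adjusted p = 0.179). S100B and SOX10 were the 2 genes of 6 at an unadjusted p under 0.05, beside 26.9% of all tested genes.

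CDH19 averaged 10.8 ± 2.18 CPM in cashmere goats and 16.3 ± 10.0 CPM in milk goats, a log2 fold change of -0.41 ± 0.29 (edgeR adjusted p = 0.391). NGFR stood at -0.32 ± 0.35 (adjusted p = 0.587), ERBB3 at 0.15 ± 0.14 (adjusted p = 0.526) and L1CAM at 0.09 ± 0.18 (adjusted p = 0.771). The breed direction of NGFR rested on month 12: it was 0.14 without the cashmere goat library of that month and 0.12 without the milk goat library. These are nearly the same fit, because a month with 1 library left adds nothing to the breed estimate. In none of the 6 genes did the 4 cashmere goat libraries lie wholly above or below the 4 milk goat libraries, a separation that 14.5% of all tested genes showed. The median log2 fold change of the 6 genes was -0.11, with 3 positive and 3 negative, against 0.03 over all tested genes.

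The S100B difference depended on the unit and on the gene table. With limma on log2(FPKM + 1) it was 0.69 (adjusted p = 0.0297), under a scaling that put the median of all genes at 0.16 and called 9.76% of them. It also passed with a pseudocount of 0.1, beside 8.24% of genes, and with an FPKM filter, beside 12.6%. In the second count table, made with another gene set, it was -0.01 (adjusted p = 0.991). There S100B had 6.01, 9.94, 6.43 and 7.44 CPM in cashmere goats and 5.27, 10.7, 11.1 and 4.57 CPM in milk goats at months 3, 6, 9 and 12.

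**Figure D3:**
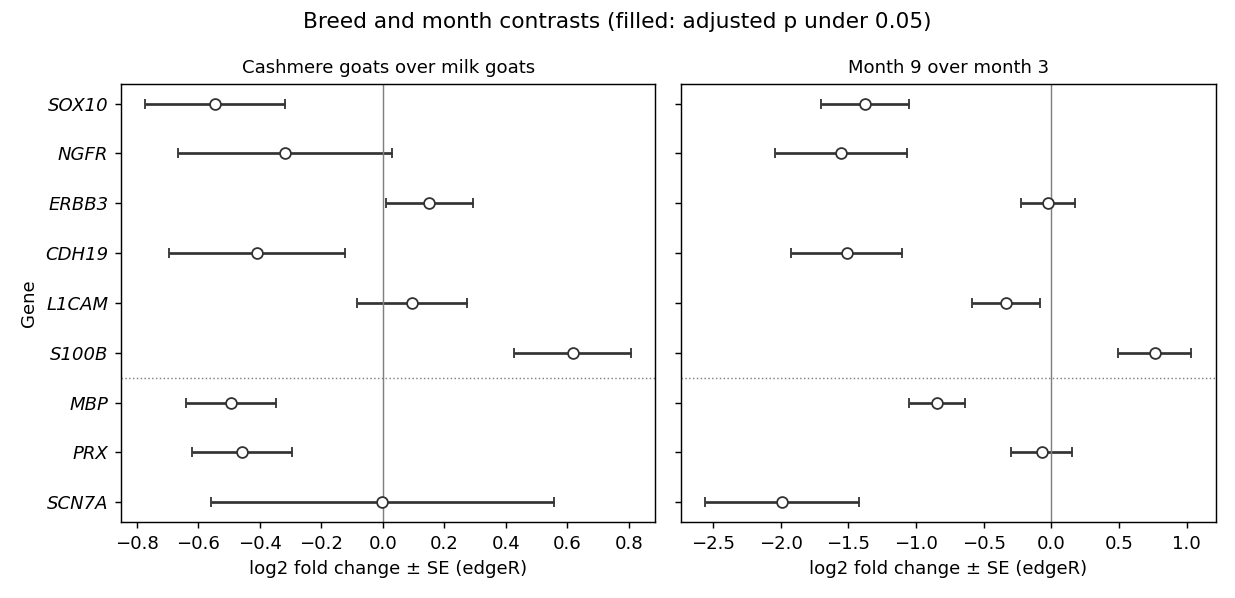
Log2 fold changes with their SE from edgeR for the 6 genes (above the dotted line) and 3 further Schwann cell genes, cashmere over milk goats on the left and month 9 over month 3 on the right. A filled point would mark an adjusted p under 0.05, and all points are open; S100B lies at 0.62 and SOX10 at -0.55 between the breeds.

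The second test asked whether the genes differed between months, with 2 libraries per month. No gene of the 14085 tested passed for any difference between the 4 months (0%; 1894 genes or 13.4% at an unadjusted p under 0.05, among them SOX10, S100B and CDH19), nor for month 9 against month 3 (0%; 3329 genes at an unadjusted p under 0.05). By DESeq2 the counts were 536 (3.81%) and 1107 genes. The month test that asked for any difference passed for NGFR (edgeR adjusted p = 0.0197) and SOX10 (adjusted p = 0.0378) without the month 12 library of the cashmere goats, beside 8.22% of genes. Without the month 12 library of the milk goats that test called 109 of 14075 genes, against 1180 of 14352 without the cashmere goat library. The fits were thus not alike on this test. Month 9 against month 3 gave a log2 fold change of -1.55 ± 0.49 (SE) for NGFR (edgeR adjusted p = 0.131), -1.38 ± 0.32 for SOX10 (adjusted p = 0.117) and -1.51 ± 0.41 for CDH19 (adjusted p = 0.119). A log2 fold change of -1 or less at month 9 was seen in 6.52% of all tested genes. S100B stood at 0.76 ± 0.27 (edgeR adjusted p = 0.153), L1CAM at -0.34 ± 0.25 (adjusted p = 0.446) and ERBB3 at -0.03 ± 0.20 (adjusted p = 0.9501). At an unadjusted p under 0.05 there were 4 of the 6 genes, all but ERBB3 and L1CAM, against 23.6% of all tested genes.

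The calls on this contrast changed with month 12 and with the tool. Leaving out either library of month 12 gives nearly the same fit of this contrast, because the library that remains has its own month coefficient. The results without month 12 libraries are therefore not separate checks. Without the cashmere goat library of month 12, NGFR (adjusted p = 0.0123), SOX10 (adjusted p = 0.0155) and CDH19 (adjusted p = 0.0449) passed, beside 14.1% of the genes tested in that fit. With the month 12 library of the milk goats left out, the same 3 genes passed (adjusted p = 0.0150, 0.0180 and 0.0447), beside 13.6%. DESeq2 on all libraries also called these 3, at adjusted p = 0.0348 for NGFR, 0.0137 for SOX10 and 0.0196 for CDH19, beside 7.86% of all tested genes. In the second count table the 3 log2 fold changes were -1.19, -1.33 and -1.39, none past the threshold (adjusted p = 0.199, 0.179 and 0.126).

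Within each breed the 2 months are 1 library against 1, without a test, and intervals cover counting error only. NGFR at month 9 was 2.70-fold lower than at month 3 in cashmere goats (71 reads against 192; log2 ratio -1.43, 95% exact interval -1.85 to -1.03). In milk goats it was 3.22-fold lower (80 reads against 291; -1.69, interval -2.06 to -1.33). SOX10 was 2.63-fold lower in cashmere goats and 2.56-fold lower in milk goats. CDH19 was 1.55-fold lower in cashmere goats (-0.63, interval -1.06 to -0.21) and 5.46-fold lower in milk goats (-2.45, interval -2.87 to -2.05). With library totals in place of TMM scaling the milk goat ratios were further from 0, at -2.16 for NGFR, -1.82 for SOX10 and -2.92 for CDH19.

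Month 12 against month 6 gave 0 calls among the 6 genes and among all tested genes with edgeR (0%; 1071 genes at an unadjusted p under 0.05, 7.6%, and 94 genes or 0.667% called by DESeq2). NGFR, SOX10 and L1CAM took opposite signs in the breeds there, while S100B, CDH19 and ERBB3 each had the same sign in both. L1CAM stood at -0.30 in cashmere goats and 0.13 in milk goats, and both intervals included 0. NGFR at month 12 was 2.23-fold lower than at month 6 in cashmere goats (71 reads against 173; log2 ratio -1.16, 95% exact interval -1.58 to -0.75). In milk goats it was 2.02-fold higher (363 reads against 206; 1.01, interval 0.76 to 1.26). SOX10 was 2.03-fold lower in cashmere goats (-1.02, interval -1.51 to -0.55) and 1.18-fold higher in milk goats, where the interval of -0.05 to 0.54 included 0. The second count table gave -1.30 for NGFR in cashmere goats and 0.19 in milk goats, where the interval of -0.21 to 0.59 included 0, and -1.02 and -0.12 for SOX10 in cashmere and milk goats. S100B was lower at month 12 in both breeds, at -0.68 in cashmere goats and -0.84 in milk goats, and the fitted value of -0.75 did not pass (edgeR adjusted p = 0.589).

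As a result the breed ratio of NGFR was largest at month 12. With 71 reads in the cashmere goat library and 363 in the milk goat library it was 3.42-fold lower in cashmere goats (log2 ratio -1.77, 95% exact interval -2.16 to -1.40). At months 3, 6 and 9 the NGFR ratio was -0.11, 0.39 and 0.15. SOX10 was 2.46-fold lower in cashmere goats at month 12 (-1.30, interval -1.75 to -0.86), and -0.43, -0.03 and -0.47 at months 3, 6 and 9. CDH19 was lower in cashmere goats at months 3, 6 and 12 (-1.10, -0.51 and -0.59) and higher at month 9 (0.72, interval 0.21 to 1.23). For ERBB3 no monthly ratio was larger than 0.33 in size, against up to 0.59 in the second count table. In the second count table the month 12 ratio was -1.28 for NGFR and -0.96 for SOX10, and SOX10 at month 9 stood at 0.80 there, with 37 reads against 31.

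Whether the seasonal course differed between the breeds was tested with a cosine and a sine of a 12-month cycle. None of the 6 genes and none of all tested genes passed (0%; 904 genes at an unadjusted p under 0.05, and 79 or 0.561% called by DESeq2). CDH19 (edgeR adjusted p = 0.686) and NGFR (edgeR adjusted p = 0.701) were the 2 genes of 6 at an unadjusted p under 0.05, against 6.42% of all tested genes. Without the milk goat library of month 6 NGFR passed (adjusted p = 0.0233), in a fit with 1 residual degree of freedom fewer that called 3.56% of its genes.

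**Figure D4:**
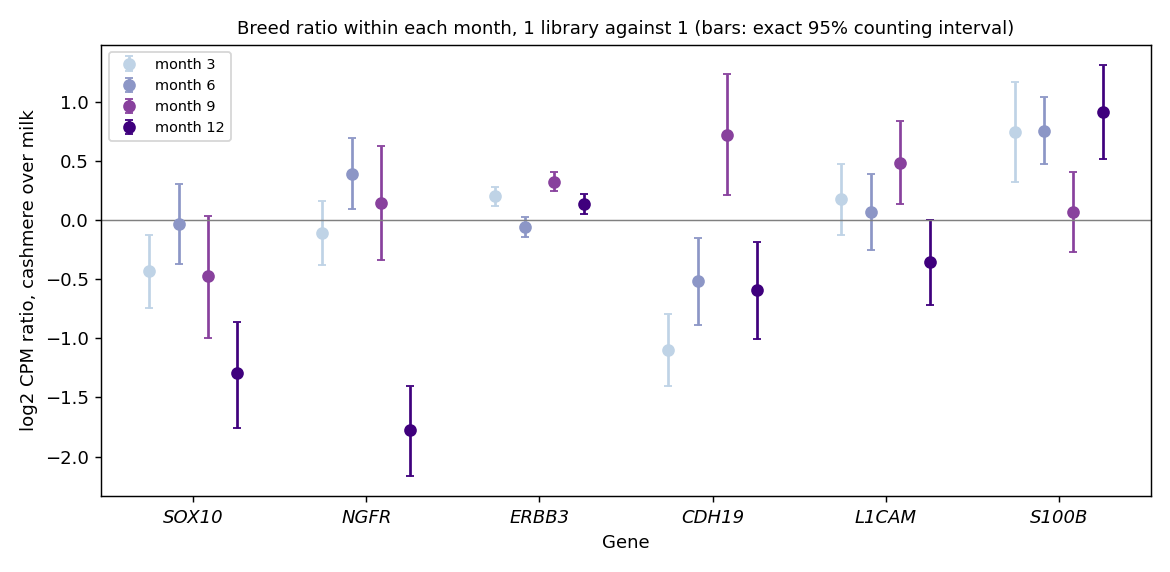
Log2 ratio of CPM, cashmere over milk goats, for each gene at months 3, 6, 9 and 12 (1 library against 1), with bars for the exact 95% interval of the read counts. The month 12 ratios of NGFR at -1.77 and SOX10 at -1.30 lie lowest, and those of S100B lie above 0 at all 4 months.

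Further Schwann cell genes were read from lists chosen with earlier results of these data known. Of 14 tested myelin genes, 0 were higher and 0 were lower in cashmere goats (edgeR, adjusted p under 0.05), against 1.47% higher and 3.32% lower among all tested genes. MBP, myelin basic protein, had 17.5, 14.1, 10.4 and 13.6 CPM in cashmere goats and 25.1, 22.1, 13.1 and 18.9 CPM in milk goats at months 3, 6, 9 and 12. It was lower in cashmere goats in each of the 4 months, although the ranges overlapped. It averaged 13.9 ± 2.90 CPM in cashmere goats and 19.8 ± 5.15 CPM in milk goats (SD, n = 4 each), a log2 fold change of -0.49 (edgeR adjusted p = 0.0919).

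PRX, periaxin of the myelin sheath, stood at -0.46 between the breeds (edgeR adjusted p = 0.133). EGR2, the transcription factor of myelination, which hair follicle and immune cells also use, stood at 0.72 (adjusted p = 0.105). The median of the 14 myelin genes was 0.10, with 9 positive and 5 negative, so the negative values of MBP and PRX were not those of the whole list.

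Over the months, MBP resembled SOX10. The correlation with SOX10 over the 8 libraries was 0.88 for MBP and 0.27 for PRX, at ranks 238 and 3750 among 10798 genes. Month 9 against month 3 gave -0.85 for MBP (edgeR adjusted p = 0.119) and -1.99 for SCN7A, a sodium channel of non-myelinating Schwann cells (adjusted p = 0.124). SCN7A had 7.67, 4.58, 2.86 and 2.11 CPM in cashmere goats and 7.82, 4.08, 1.103 and 5.29 CPM in milk goats over months 3 to 12, so that it was lowest at month 12 in cashmere goats and at month 9 in milk goats. PRX stood at -0.07 (adjusted p = 0.872). Of the 14 myelin genes 10 were negative on this contrast with a median of -0.39, against a median of -0.0007 over all tested genes. Of these 14, 0 passed and 4 were at an unadjusted p under 0.05, beside 0% and 23.6% of all tested genes.

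**Figure D5:**
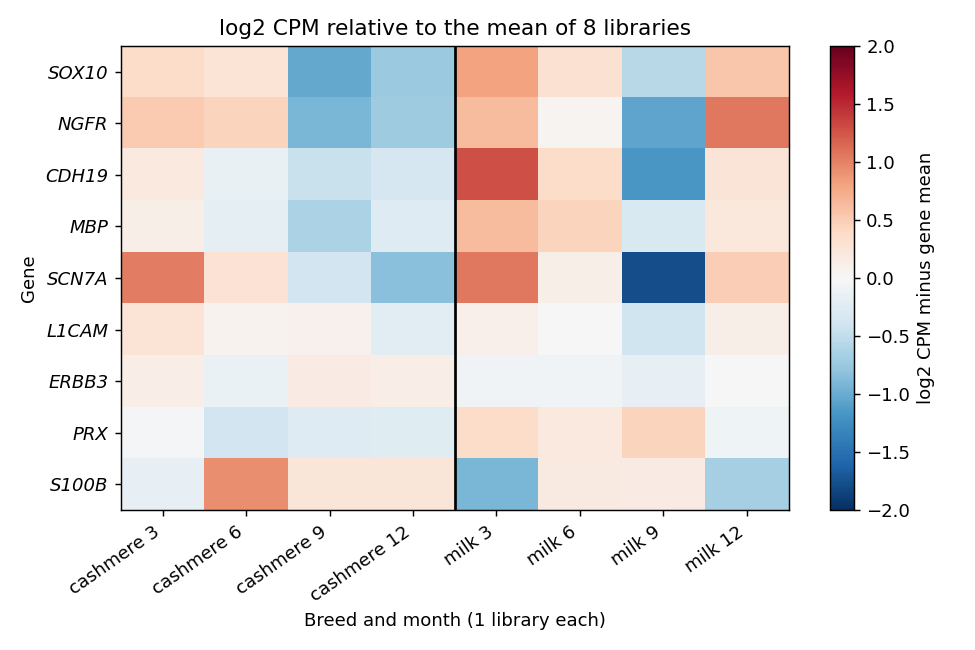
Log2 CPM of the 6 genes and 3 further Schwann cell genes in each library, relative to the gene's mean over 8 libraries (blue lower, red higher, from -2 to 2). SOX10, NGFR, CDH19, MBP and SCN7A are blue at month 9 in both breeds and at month 12 in cashmere goats, while S100B is reddest in cashmere goats at month 6.

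Among 10 other tested genes of the Schwann lineage, 0 were higher and 1 was lower in cashmere goats, beside 1.47% higher and 3.32% lower among all tested genes. On month 9 against month 3, 5 of the 10 were positive and 5 negative, with a median of -0.18. Of these 10, 0 passed and 4 were at an unadjusted p under 0.05, beside 0% and 23.6% of all tested genes. ZEB2, a zinc finger repressor that Schwann cells need for myelination and that many mesenchymal and immune cells express, averaged 93.1 ± 14.7 CPM in cashmere goats and 187 ± 25.9 CPM in milk goats (SD, n = 4 each). The cashmere libraries all lay below the milk libraries, a separation of either sign that 14.5% of all tested genes showed. ZEB2 fell by 1.01 on the log2 scale (edgeR adjusted p = 0.0257). This call too was lost without any 1 library of months 3, 6 or 9 (adjusted p between 0.0852 and 0.110), with the log2 fold change between -1.14 and -0.97. In those 6 fits 0 to 4 genes were called in all.

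In the neuregulin and ERBB list 0 of 5 tested genes passed between the breeds in either direction, beside 4.79% of all tested genes. NRG1, the ligand that reaches ERBB3, averaged 13.5 ± 4.29 CPM in cashmere goats and 9.20 ± 3.68 CPM in milk goats (SD, n = 4 each; log2 fold change 0.58, edgeR adjusted p = 0.185). ERBB2, the partner receptor of ERBB3, stood at -0.13 (adjusted p = 0.594) and EGFR at 0.01 (adjusted p = 0.977).

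In the neurotrophin list, 1 of 7 tested genes was higher and 0 were lower in cashmere goats, beside the same 1.47% and 3.32% of all tested genes. MAGED1, an adaptor that binds NGFR, rose by 0.86 on the log2 scale (edgeR adjusted p = 0.0460), at 49.6 ± 10.96 CPM in cashmere goats against 27.7 ± 7.56 CPM in milk goats (SD, n = 4 each). The call was lost without any 1 library of months 3, 6 or 9 (adjusted p between 0.105 and 0.137) and without month in the model (adjusted p = 0.0861). The neurotrophin receptors NTRK2 and NTRK3 stood at -0.67 (edgeR adjusted p = 0.130) and -0.83 (adjusted p = 0.0835).

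Markers of other cells moved with the months as well. Endothelial genes summed to 614, 415, 287 and 239 CPM in cashmere goats and 756, 467, 229.7 and 526 CPM in milk goats at months 3, 6, 9 and 12, for 8 of 8 listed genes. All 8 were lower at month 9 than at month 3 (median log2 fold change -1.38). Hair shaft keratins, 8 of 16 listed, summed to 784, 2024, 1995 and 1542 CPM in cashmere goats and 239, 1416, 2337 and 68.3 CPM in milk goats. The endothelial sums were thus lowest in the 3 libraries where SOX10 and NGFR were lowest. The keratin sums were high in those libraries and also at month 6, where SOX10 and NGFR were not low. Basal keratinocyte genes, 4 of 5 listed, summed to 13032 to 16613 CPM in cashmere goats and 10077 to 17120 CPM in milk goats. Month 9 against month 3 was also negative for 6 of 6 fibroblast genes (median -0.90) and for 8 of 8 smooth muscle genes (median -0.64), against -0.86 for the 6 Schwann cell genes, and 0 passed in any of these lists. Fibroblast genes summed to 8565, 33370, 5137 and 2308 CPM in cashmere goats and 19252, 12123, 9346 and 2253 CPM in milk goats at months 3, 6, 9 and 12. Between the breeds, 0 of 8 smooth muscle genes were higher and 3 lower in cashmere goats (DES, LMOD1 and SYNM, at -1.63, -1.20 and -0.78), beside 1.47% and 3.32% of all tested genes. None of these 3 calls held without any 1 library of months 3, 6 or 9 (edgeR adjusted p between 0.0744 and 0.178). None of 6 fibroblast genes and none of 2 tested skeletal muscle genes passed between the breeds. The part of these tissue-wide differences in the SOX10, NGFR and CDH19 values was not tested.

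Among cells that share single markers with Schwann cells, the 14 listed melanocyte genes summed to 145 to 153 CPM in cashmere goats and 123 to 155 CPM in milk goats, mostly from MITF. The pigment enzymes TYR and TYRP1 were both at 0 reads in cashmere goats at month 3 and in milk goats at month 9. Of 8 tested melanocyte genes 7 were positive between the breeds, with a median of 1.45, and 0 passed, beside 4.79% of all tested genes. MITF, with a mean of 105 CPM, was the negative gene at -0.28 (edgeR adjusted p = 0.214). KIT, next in level at 14.2 CPM, stood at 0.86 (edgeR adjusted p = 0.142). S100B and ERBB3 were positive between the breeds as well, and SOX10 was negative. The part of melanocytes in the SOX10 and ERBB3 values was not tested. Langerhans cell genes, 3 of 4 listed, summed to 452 to 576 CPM in cashmere goats and 462 to 534 CPM in milk goats, mostly from EPCAM, and CD207 averaged 10.7 ± 4.67 CPM in cashmere goats and 12.6 ± 1.49 CPM in milk goats (SD, n = 4 each). Fat cell genes, 6 of 7 listed, summed to 27.4 to 36.3 CPM in cashmere goats and 22.4 to 64.6 CPM in milk goats, and LEP was at 0 reads in 6 of 8 libraries. Their part in the S100B values was not tested.

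The genes whose log2 CPM ran most like each of the 6 over the 8 libraries were found among 10798 genes with a mean of at least 5 CPM. For SOX10 they were TIE1 (r = 0.98), HOXD3 and KCNMA1 (both 0.98). For NGFR they were PYGB (0.98), ZNF691 (0.98) and MN1 (0.97), and for CDH19 they were DDR2, ACSL4 and GUCY1A3 (0.98, 0.98 and 0.97). For S100B they were DNAJC11, SRSF12 and SPPL3 (all 0.96), for L1CAM CD36 (0.98), STOM and UBE2D4 (both 0.97), and for ERBB3 they included ANKRA2 (0.93) and ADGRG2 (0.90). SOX10 ranked 70 in likeness to NGFR, and none of the other 5 genes was among the 3 likest of any.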

How the data were processed

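Per the labels' protocols, strand-specific paired-end libraries were made from poly(A) RNA of skin taken up in TRIzol, though that text speaks of embryos. Bowtie2 is named in the submitters' processing notes, with no role, version or genome build stated. The authors deposited raw read counts for 18815 genes, the FPKM of the same genes, and a second table of raw read counts for 20780 genes. Both count tables come from the same libraries and are not independent. The first count table and the FPKM table name the cashmere goats by a transliterated word for their down. Those columns were taken as cashmere goats on that reading, as the only breed besides milk goats.

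Counts of the first table were filtered with filterByExpr, scaled by TMM and tested with edgeR 4.0.16 in R 4.3.3 (quasi-likelihood F test, month and breed in the model, 3 residual degrees of freedom). Adjusted p-values are Benjamini-Hochberg over all tested genes, with a threshold of 0.05. The season model has 2 residual degrees of freedom. Its spread is the contrast of months 3 and 9 with months 6 and 12 within each breed, which the cycle cannot describe. CPM use TMM factors, and log2 CPM for correlations use a prior count of 2. Ratios of 2 libraries have exact (Clopper-Pearson) 95% intervals that cover counting error only, because no breed and month has a replicate. Amplified reads are not counted as single molecules, so the intervals may be too narrow even for that error. Months pair the breeds by the labels: deviations from the breed mean correlated at 0.56, 0.31, 0.43 and -0.05 between the breeds at months 3, 6, 9 and 12. Unlike months ranged from -0.64 (cashmere goats month 3, milk goats month 9) to 0.41 (cashmere goats month 3, milk goats month 12). The cashmere goat library of month 12 correlated at 0.35 with the milk goat library of month 9, above its own month. Every p-value measures the spread between these libraries, without a replicate of any breed and month. In the month and breed model that spread is how far the breeds departed from parallel courses over the months. A breed difference at a single month thus counts as spread there. No p-value measures variation between animals. The scripts were tested on simulated data.

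The 6 genes and all lists were chosen with earlier results of these data known. The rule for other named genes took up to 4 of a list past the breed threshold, or the 2 most abundant, of which not all are printed. MBP, PRX, EGR2, SCN7A, NRG1, NTRK2, NTRK3, TYR, TYRP1, LEP and PRPH fall outside it and were chosen after their values were seen. Alternatives used DESeq2 1.42.0, limma 3.58.1 on log2 FPKM plus 1 or 0.1, other scalings and filters, and each library left out. Some genes are not reported here, and the counts of the lists leave them out. No sequence was used here.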

Additional observations from a re-analysis of the deposited data

Results flagged for a closer look

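ERBB3 in cashmere goats was marked because its month 6 library, at 221 CPM, stood apart from the other 3, at 265, 266 and 272 CPM. The gap was 0.875 of the whole range. Chance marks about 1 in 20 groups of 4, and 12 groups were examined. The 4 libraries come from 4 different months, and the second count table also had its lowest cashmere goat value at month 6 (214 CPM).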

How the results depend on the processing

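Among the 6 genes the breed test called 0 in the main fit and 1 (S100B) with limma on log2(FPKM + 1), log2(FPKM + 0.1) or FPKM of at least 1, and 0 with each library left out. Over all genes it called 1712 with DESeq2, 1374, 1161 and 1491 with the 3 limma fits in that order, 1117 in the second table, 346 without the replicate block of month, and 0 to 869 with 1 library left out. The month test called 0 genes, 536 with DESeq2, and 0 to 1180 (0 to 2 of the 6) with 1 library left out. Month 9 against month 3 called 3 of the 6 and 1107 genes with DESeq2, and 0 to 3 of the 6 and 0 to 2027 genes with 1 library left out. Month 12 against month 6 called 94 genes with DESeq2, 9 and 18 with limma on log2(FPKM + 1) without and with the FPKM filter, and 0 to 452 (0 of the 6) with 1 library left out. Breed by season called 79 genes with DESeq2, 17 with library totals, 118 without a filter, and 38 to 501 (0 to 1 of the 6) with 1 library left out.

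Some signs turned. In the second table the breed value of S100B was -0.0055, against 0.62. Its breed ratio was -0.10 at month 6 and -0.79 at month 9, that of SOX10 at month 9 was 0.80 and that of L1CAM at month 12 was 0.49. There month 12 against month 6 was -0.44 for NGFR, -0.060 for ERBB3 and 0.022 for CDH19, and within milk goats -0.38 for ERBB3, 0.28 for CDH19, -0.69 for L1CAM and -0.12 for SOX10. With limma that contrast was -0.10, -0.17 and -0.10 for NGFR with pseudocounts of 1, 0.1 and 1 with the FPKM filter. With 1 library left out the ranges that crossed 0 were -0.61 to 0.14 (NGFR, breed), -0.031 to 0.24 (L1CAM, breed), -0.14 to 0.054 (ERBB3, month 9 against 3), and, for month 12 against 6, -1.04 to 0.88 (NGFR), -0.89 to 0.11 (SOX10) and -0.39 to 0.21 (L1CAM). The cause was not tested. SOX10, NGFR and CDH19 kept a negative sign for month 9 against month 3 in all 11 other settings and all 8 fits with 1 library left out. Fits without either library of the same month rest on nearly the same residuals, so they are not separate checks. The FPKM fits and library totals are not centred on the median gene, which stood at -0.17 (pseudocount 1) and -0.32 on that contrast.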

Other observations

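Relatives of the 6 genes by family were read for comparison. Of 6 tested S100 genes, 0 were higher and 2 lower in cashmere goats, beside 1.47% higher and 3.32% lower among all tested genes. S100A4, a calcium-binding protein of fibroblasts and immune cells, averaged 299 ± 78.0 CPM in cashmere goats and 1071 ± 418 CPM in milk goats (SD, n = 4 each), a log2 fold change of -1.77 (edgeR adjusted p = 0.0243). S100A13, which takes part in secretion of growth factors without a signal peptide, averaged 74.7 ± 21.1 and 167 ± 26.8 CPM in cashmere and milk goats (-1.19, edgeR adjusted p = 0.0287). Both lay on the opposite side from S100B, but the 6 relatives were split, with 3 positive and 3 negative and a median of -0.15. In S100A4 and in S100A13 the cashmere and milk libraries did not overlap, as in 14.5% of all tested genes. Neither call held without any 1 library of months 3, 6 or 9 (edgeR adjusted p between 0.0767 and 0.117). Both held without either library of month 12, which gives nearly the same fit.

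Of 8 tested relatives and partners of L1CAM, 0 passed between the breeds in either direction, beside 4.79% of all tested genes. Their median was -0.15. NRP1, a semaphorin co-receptor, stood at -0.15 (edgeR adjusted p = 0.614) and ANK3, the ankyrin of nodes and axon initial segments, at -0.12 (adjusted p = 0.587). Month 9 against month 3 was negative for 7 of the 8, with a median of -0.73 and 0 passed. Of 6 tested cadherins, 0 passed between the breeds, beside 4.79% of all tested genes. CDH1, the epithelial cadherin, stood at 0.48 (edgeR adjusted p = 0.107) and CDH3, the cadherin of the hair matrix, at -0.08 (adjusted p = 0.743).

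Axon genes were read beside the glial ones. Of 8 tested, 0 were higher and 3 lower in cashmere goats (NEFH, SCN9A and CHGB), with a median of -0.53, beside 1.47% higher and 3.32% lower among all tested genes. The NEFH call was lost without any 1 of the 8 libraries (edgeR adjusted p between 0.0568 and 0.145), and its level was uneven, at 1.46 ± 2.47 CPM in cashmere goats and 20.8 ± 38.8 CPM in milk goats (SD, n = 4 each). The SCN9A call was lost without any 1 library of months 3, 6 or 9, and the CHGB call in 4 of those 6 fits. On month 9 against month 3, 6 of the 8 were positive and 2 negative, with a median of 0.52 and 0 passed. The sum of the 10 of 12 listed axon genes found was 68.3 to 104 CPM in cashmere goats and 97.8 to 181 CPM in milk goats. SCN9A, a sodium channel of sensory neurons, stood at -2.41 for month 9 against month 3 (edgeR adjusted p = 0.110), and PRPH, the peripheral neuron filament, at 2.04 (adjusted p = 0.110).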
